A study of Mus musculus with 2 samples.

Results

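Cholesterol and fatty acid synthesis was followed through 36 genes in whole fetal mouse lung with and without TAZ. The genes were taken by role, by a rule that uses no measured value, but with earlier results of these data known. Of them, 5 control SREBP, the master regulator of lipid synthesis, and 18 belong to sterol synthesis. A further 10 belong to fatty acid synthesis and 3 to phospholipid synthesis. Each gene was followed at the probe sets that the array annotation assigns to that gene alone, with symbols brought up to date through the Entrez identifier. All 36 had such a probe set, of 18193 genes represented on the array, and between them they had 87. The samples were whole lungs at E15.5 (the embryonic day), wild type or TAZ-deficient, the wild type mice being littermates. For each genotype 4 total RNA samples were combined, and each pool was hybridised to 1 Affymetrix one-colour mouse array, so that the comparison rests on 2 arrays. The sources used here do not give the allele behind the TAZ deficiency, the strain or the sex of the embryos. Because each genotype is a single pool on a single array, no difference below has a test, a p-value or a replicate error, and every fold describes these 2 pools.

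SREBPs are transcription factors made as membrane proteins of the endoplasmic reticulum. When sterol is scarce, the escort protein SCAP carries them to the Golgi, where a pair of proteases frees the active part. When sterol is plentiful, INSIG proteins hold SCAP back. SREBP2 mainly drives the genes of cholesterol synthesis and SREBP1c mainly those of fatty acid synthesis. In the lung before birth the fatty acids feed the phospholipids of surfactant, the film that keeps the airspaces open and that type 2 alveolar cells secrete. TAZ, the product of Wwtr1, is a coactivator of TEAD transcription factors under the control of the Hippo kinases.

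Promoters of 5 members are shown because their genes carry the comparison below: Fasn and Acly among the fatty acid genes with higher signal in TAZ-deficient lung, Mvk and Msmo1 among the sterol genes with lower signal, and Hmgcs1, the sterol gene whose promoter held a sterol regulatory element core. Each run is the 250 bases before the start of the gene, 5′ to 3′ on the gene's strand, from RefSeq in build GRCm38.p6. Capitals mark 3 motifs on either strand, the element core TCACNCCAC, the NF-Y box CCAAT and the Sp1 box GGGCGG.
Fasn, chr11:120824548-120824797, minus strand: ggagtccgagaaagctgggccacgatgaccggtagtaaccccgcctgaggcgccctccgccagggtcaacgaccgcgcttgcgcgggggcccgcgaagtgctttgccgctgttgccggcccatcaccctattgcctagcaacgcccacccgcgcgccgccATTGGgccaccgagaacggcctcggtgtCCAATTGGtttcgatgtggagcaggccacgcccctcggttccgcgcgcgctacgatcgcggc
Acly, chr11:100528001-100528250, minus strand: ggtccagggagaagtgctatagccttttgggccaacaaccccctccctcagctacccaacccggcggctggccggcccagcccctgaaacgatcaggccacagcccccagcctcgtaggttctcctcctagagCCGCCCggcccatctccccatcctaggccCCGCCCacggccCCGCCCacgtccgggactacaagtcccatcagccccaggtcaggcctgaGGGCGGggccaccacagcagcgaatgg
Hmgcs1, chr13:119690101-119690350, plus strand: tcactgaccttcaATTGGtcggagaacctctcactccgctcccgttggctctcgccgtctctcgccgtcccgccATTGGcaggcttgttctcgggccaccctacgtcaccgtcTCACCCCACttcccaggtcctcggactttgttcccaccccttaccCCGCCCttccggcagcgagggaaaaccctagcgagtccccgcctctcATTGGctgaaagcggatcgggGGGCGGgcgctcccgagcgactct
Mvk, chr5:114444019-114444268, plus strand: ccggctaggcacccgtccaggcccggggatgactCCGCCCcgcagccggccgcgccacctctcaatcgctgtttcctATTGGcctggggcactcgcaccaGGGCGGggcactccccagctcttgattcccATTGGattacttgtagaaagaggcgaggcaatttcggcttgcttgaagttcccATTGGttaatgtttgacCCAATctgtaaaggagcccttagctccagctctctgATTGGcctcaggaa
Msmo1, chr8:64733579-64733828, minus strand: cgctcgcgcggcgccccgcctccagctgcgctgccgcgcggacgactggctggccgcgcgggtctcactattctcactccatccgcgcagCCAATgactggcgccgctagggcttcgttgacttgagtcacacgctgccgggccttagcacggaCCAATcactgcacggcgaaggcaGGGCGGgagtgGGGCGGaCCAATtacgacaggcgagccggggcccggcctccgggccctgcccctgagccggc

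These factors are known as partners at SREBP-dependent promoters, NF-Y and Sp1 binding beside the SREBP site. The Hmgcs1 promoter held the element core as TCACCCCAC, starting 137 bases before the gene, with 3 NF-Y boxes and 2 Sp1 boxes. Mvk held 5 NF-Y boxes, Msmo1 3 and Fasn 3, the last pair of which overlap on opposite strands, while Acly held 4 Sp1 boxes and no NF-Y box. RefSeq promoters were matched for 29 of the 36 members, with 40 start sites. Those not matched were Fdps, Fdft1, Sqle, Stard4, Scd1, Scd2 and Fads1. Every one of the 14 sterol synthesis genes matched had an NF-Y box at 1 or more of its starts, or 82.4% of their 17 promoters, and 3 of the 7 fatty acid genes had one, or 42.9% of their promoters. An NF-Y box stood in 33.8% of all 32851 promoters and in 35.4% of the 21262 of protein-coding genes. For the Sp1 box the shares were 82.4% of sterol and 42.9% of fatty acid promoters, 32.7% of all promoters and 42.6% of protein-coding ones. The element core was in 3 of the 40 member promoters (Hmgcs1 and 2 of the 3 starts of Pcyt1a), or 7.5%, against 1.05% of all promoters. By gene, the core was in 2 of the 29 members matched and in 331 of all 27025 genes. A match is a run of letters and was not tested as a site. Only this form of the core was searched for, within 250 bases, so a promoter without a match was not shown to lack an element.

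On the array, the 10 fatty acid genes all read higher in TAZ-deficient than in wild type lung, by small amounts, while 14 of the 18 sterol synthesis genes read lower. In whole lung, fewer cells of a type and less RNA per cell cannot be told apart. Taking TAZ-deficient over wild type throughout, the median log2 ratio was 0.13 for fatty acid synthesis and -0.06 for sterol synthesis. It was -0.08 for SREBP control and also for phospholipid synthesis, and -0.03 over all 36 members. Over the 12040 measured genes the median log2 ratio was -0.01. A gene counted as measured when its signal was above a floor of 15.2 units, the median of all signals, on either array, and 36 of 36 members were. Of all measured genes 46.7% had a ratio above 0, and of the 6732 whose signal was above the 75th percentile (106.3 units) on both arrays 49.2% did. Of the members 29 were in that brighter class, 8 of 10 fatty acid genes and 13 of 18 sterol genes among them.

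**Figure D1:**
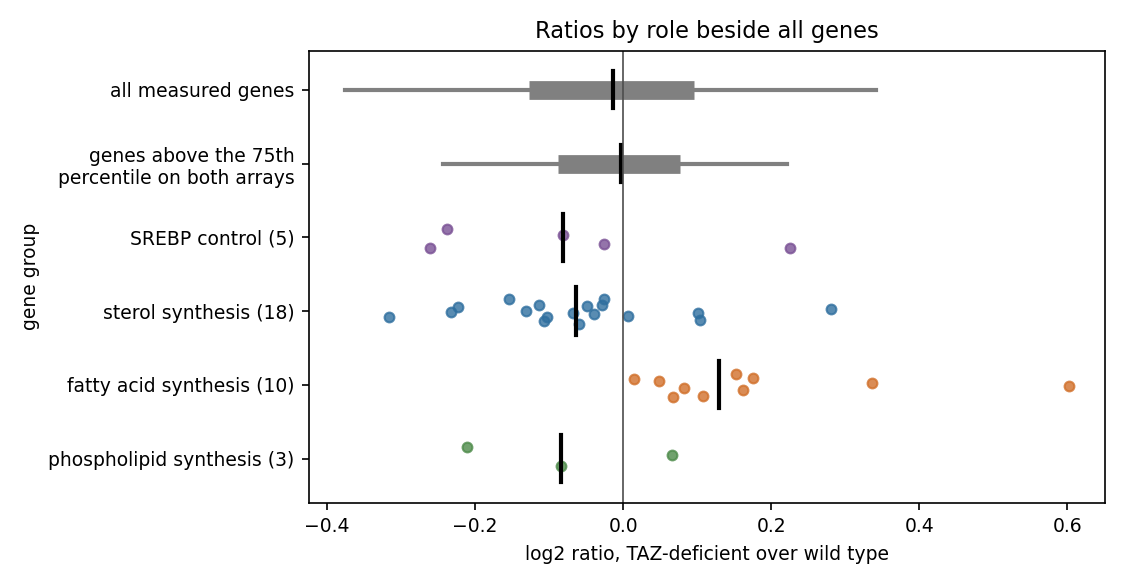
Log2 ratio of the 2 pools, TAZ-deficient over wild type (horizontal axis), for the members of each role, 1 point per gene with the median as a black bar, beside all measured genes and the brighter genes. For those 2 backgrounds the thick bar spans the 25th to 75th percentile and the line the 5th to 95th; the 10 fatty acid genes lie above 0, and 14 of 18 sterol genes lie below it.

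Over all 36 members together, the sizes were close to those of measured genes in general. Counting differences of at least 1.2-fold, 3 members were higher (Scd1, Fasn and Lss) and 1 was lower (Msmo1), where 8.02% of measured genes were higher and 10.6% lower by that much. Among the brighter genes these shares were 3.12% and 3.98%. At 1.5-fold only Scd1 was counted, among the higher genes, against 1.27% of measured genes higher and 1.48% lower, and 0.208% and 0.119% of the brighter ones. Of the members counted at either fold, Fasn and Msmo1 were in the brighter class, while Scd1 and Lss were not. The only error that a single array per group offers is the disagreement between probe sets of 1 gene, which holds no variation between embryos, pools or arrays. For 5637 genes the ratios of the brightest and the next probe set could be compared, both being above the floor. The SD of a single log2 ratio, taken from the SD of their difference over √2, was 0.20. Where both sets were in the brighter class (2330 genes) it was 0.12. Of the 36 members, 26 had a ratio within 0.20 of 0 (72.2%), and so did 73.1% of all measured genes. Of the 29 members in the brighter class, 17 lay within the tighter 0.12 (58.6%), 5 above it and 7 below, where 67.2% of all brighter genes lay within it. Of the 6732 brighter genes, 1025 lay above it and 1183 below. The 5 members above were 4 fatty acid genes and Srebf1. The 7 below were Scap, Insig2, Mvk, Fdft1, Msmo1, Nsdhl and Pcyt1a. Most single members were thus shifted by no more than probe sets of 1 gene disagree, and only the fatty acid genes shared a sign throughout their role at the probe sets used.

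**Figure D2:**
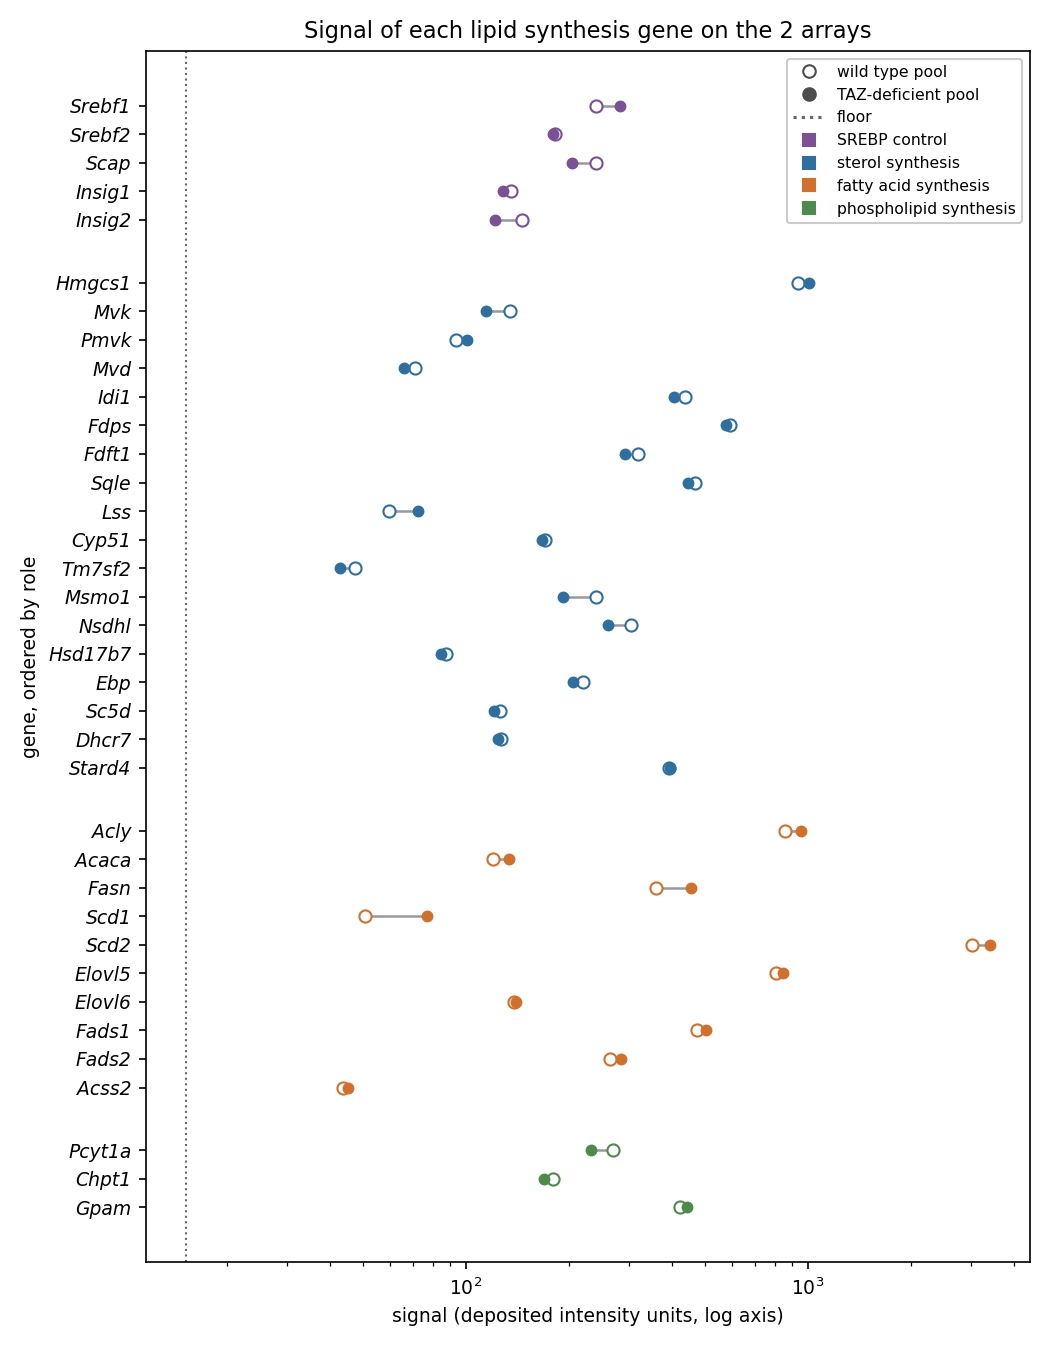
Signal of each member (horizontal log axis, deposited intensity units) at the probe set used for the gene, with an open circle for the wild type pool, a filled circle for the TAZ-deficient pool and the floor of 15.2 as a dotted line. Filled circles lie to the right for every fatty acid gene and to the left for most sterol genes, and the widest gap is that of Scd1 (50.6 and 76.8).

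Among the regulators, Srebf1 was higher and the escort gene Scap lower. Srebf1, which encodes the SREBP1 isoforms, read 240.5 in the wild type and 281.3 in the TAZ-deficient pool, 1.17-fold higher (log2 ratio 0.23). That put it above all but 10.1% of measured genes, on the single probe set it has, which is shared between transcripts and does not separate the isoforms. Srebf2, the gene of SREBP2, read 182.4 and 179.2 at one probe set and 180.7 and 176.1 at the other (log2 ratios -0.03 and -0.04). Both values were close to equal on the 2 arrays. Scap read 240.3 and 203.7, 1.18-fold lower (-0.24), with 12.4% of measured genes lower still. Its second probe set was under the floor on both arrays.

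The INSIG genes gave no single direction. Insig1, an SREBP target as well as its brake, read 135.7 and 128.3 (log2 ratio -0.08). Insig2, which does not depend on SREBP in the same way, read 145.5 and 121.4 at the probe set used, just under the 1.2-fold limit (-0.26). Its other probe sets read 120.2 against 123.1 and 67.3 against 74.2, with log2 ratios of 0.03 and 0.14. The probe sets of Insig2 therefore differed in sign, and with their median the gene's ratio was 0.03. In all, 1 of the 5 regulators had a ratio above 0 and 4 below.

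In the mevalonate part of sterol synthesis, from HMG-CoA to squalene, 5 of 7 genes read lower. Hmgcs1, the HMG-CoA synthase of the cytosol, was an exception and read 939.0 in the wild type and 1006.9 in the TAZ-deficient pool (1.07-fold higher, log2 ratio 0.10). Its other 3 probe sets above the floor read 966.1 and 959.6, 666.2 and 674.8, and 296.3 and 302.2, so that 1 of 4 had the opposite sign and all were near 0. Mevalonate kinase, Mvk, read 134.4 and 114.4, 1.17-fold lower (-0.23), and 92.5 and 83.6 at its second probe set (-0.15). Both Mvk probe sets were thus lower.

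The other enzymes of this stretch differed less. Phosphomevalonate kinase, Pmvk, read 93.7 and 100.7 (log2 ratio 0.10). The decarboxylase Mvd read 71.1 and 65.7 (-0.11) at one probe set but 67.4 and 69.0 (0.03) at the other. Isopentenyl diphosphate isomerase, Idi1, likewise read 436.2 and 404.9 (-0.11) and 205.4 and 216.4 (0.08). Neither Mvd nor Idi1 therefore had a direction that both probe sets shared. Farnesyl diphosphate synthase, Fdps, read 590.9 and 574.9 (-0.04). Squalene synthase, Fdft1, the enzyme that commits farnesyl units to sterols, read 318.8 and 291.0 (-0.13) and, at its second probe set, 314.7 and 278.6 (-0.18). Both of its probe sets above the floor were lower.

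From squalene to cholesterol, 9 of the 10 enzymes among the members read lower. The lowest ratio of all 36 members was that of Msmo1, the C-4 methylsterol oxidase, which read 240.1 in the wild type and 192.8 in the TAZ-deficient pool, 1.25-fold lower (log2 ratio -0.32). Of the measured genes 7.33% were lower than that. Its second probe set was under the floor on both arrays, and the probe set used is one shared between transcripts. Nsdhl, the dehydrogenase that acts with MSMO1 in removing the C-4 methyl groups, read 303.1 and 259.6, 1.17-fold lower (-0.22). Hsd17b7, the reductase of the same step, read 87.6 and 84.7 at the probe set used (-0.05), 73.4 and 68.8 at another (-0.09) and 56.1 and 40.5 at a further one (-0.47). These 3 demethylation genes among the members thus read lower, at each of their probe sets above the floor.

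Lanosterol synthase, Lss, which closes the ring system, was the exception in this stretch. It read 59.7 and 72.5 at the probe set used, 1.21-fold higher (0.28), which is a shared set, and 29.2 and 27.8 at the other (-0.07). Without shared probe sets the ratio of Lss was below 0. Squalene epoxidase, Sqle, a rate-controlling step of the pathway, read 468.8 and 447.2 (-0.07). Lanosterol demethylase, Cyp51, read 170.1 and 166.8 (-0.03), and Tm7sf2, a sterol reductase, read 47.5 and 42.7 (-0.15). The isomerase Ebp read 220.3 and 205.1 (-0.10). Sc5d, a sterol desaturase, read 125.8 and 120.7 (-0.06), and 56.8 and 46.2 at its second probe set (-0.30). The last reductase, Dhcr7, read 126.3 and 124.1 (-0.03). Stard4, a carrier that moves sterol between membranes, read 393.8 and 395.7 at the probe set used (0.01), 319.4 and 237.7 at another (-0.43) and 285.9 and 260.1 at a further one (-0.14), so that the sign of its ratio depended on the probe set.

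Across sterol synthesis, 24 of 32 probe sets above the floor had a ratio below 0 and 8 above. Of the 10 genes with 2 or more such probe sets, all agreed on lower signal in 5 (Mvk, Fdft1, Cyp51, Hsd17b7 and Sc5d), none agreed on higher signal, and 5 differed in sign. Across the array, the brightest and the next probe set of a gene had the same sign in 58.1% of those 5637 genes. That is a looser measure than agreement of all probe sets above the floor. Probe sets of 1 gene share the RNA and the array and are not replicates. For the counts by probe set, here and below, no share over all probe sets of the array is given.

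**Figure D3:**
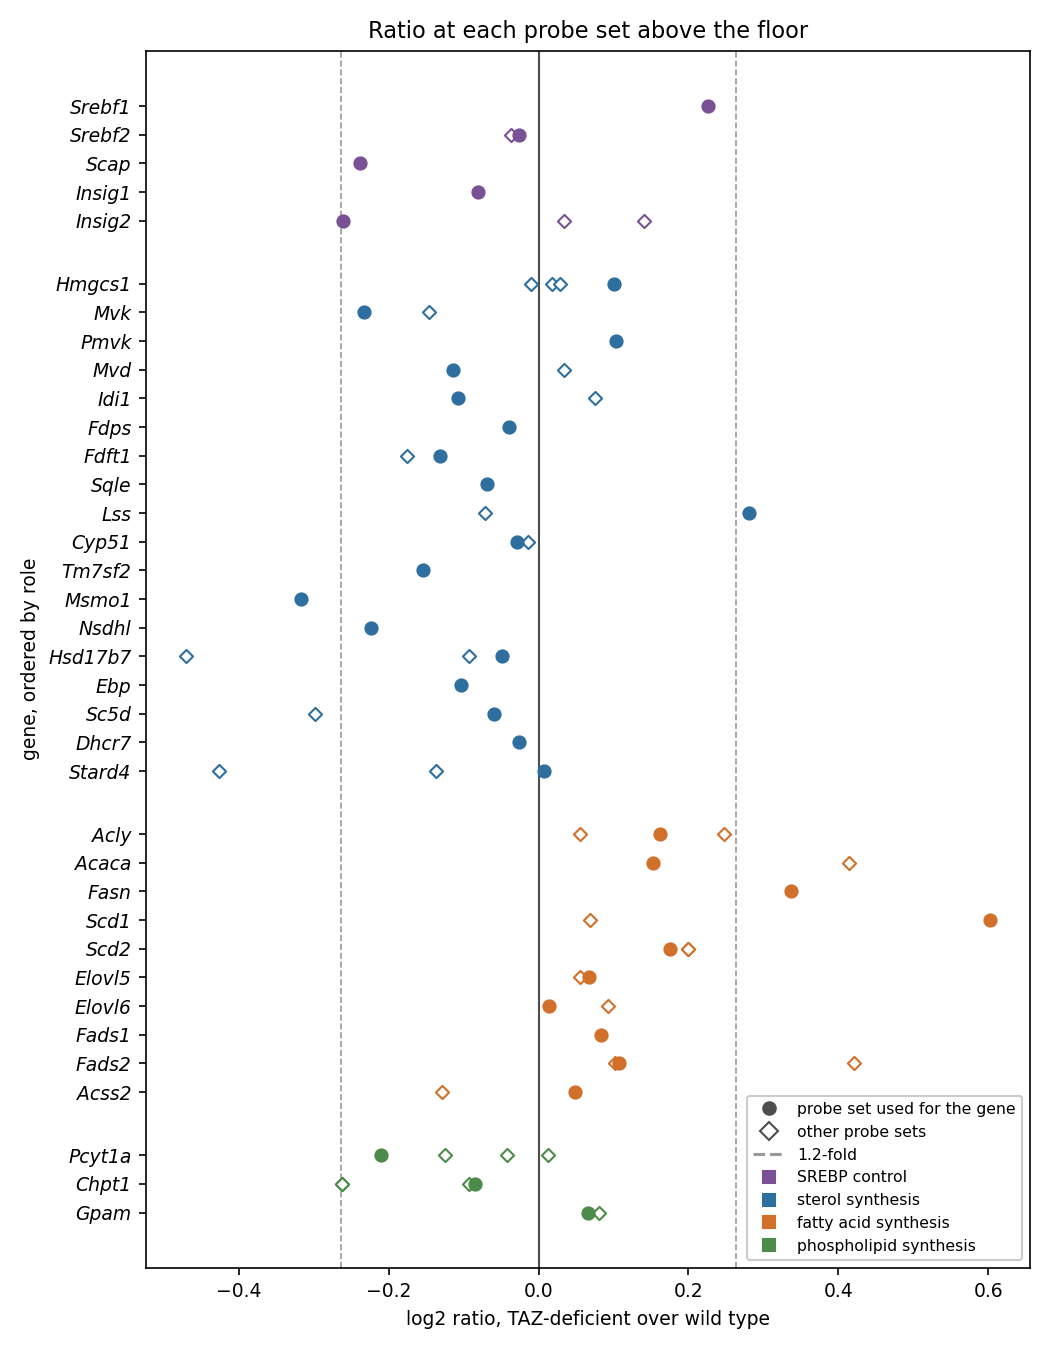
Log2 ratio, TAZ-deficient over wild type, at each of the 71 probe sets above the floor (horizontal axis), 1 line per gene, with a filled circle for the probe set used for the gene, an open diamond for any other and dashed lines at 1.2-fold. Of the fatty acid probe sets 20 of 21 lie above 0, and of the sterol probe sets 24 of 32 lie below 0.

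In fatty acid synthesis every gene read higher in TAZ-deficient lung at the probe set used, and 20 of 21 probe sets above the floor did. ATP citrate lyase, Acly, which supplies cytosolic acetyl-CoA to both lipid pathways, read 855.4 in the wild type and 956.9 in the TAZ-deficient pool, 1.12-fold higher (log2 ratio 0.16). Its other probe sets read 564.5 and 670.3 (0.25) and 264.2 and 274.5 (0.06). Acetyl-CoA carboxylase, Acaca, which makes malonyl-CoA, read 120.3 and 133.7, 1.11-fold higher (0.15), and 30.3 and 40.4 at a dimmer probe set (0.42). Fatty acid synthase, Fasn, read 359.7 and 454.3, 1.26-fold higher (0.34), on its only probe set. Only 5.16% of measured genes had a higher ratio than Fasn. These 3 enzymes run in sequence from citrate to palmitate, and all were higher at each probe set above the floor.

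The stearoyl-CoA desaturases, which make monounsaturated fatty acids, were higher too. Scd1 had the highest ratio of the 36 members, reading 50.6 and 76.8, 1.52-fold higher (0.60), but its second probe set read 24.6 and 25.8 (0.07). Its size was thus seen at 1 of 2 probe sets. Scd2, the desaturase known to prevail in developing mouse tissues, read 3013.2 and 3402.0 (1.13-fold higher, 0.18), 1609.4 and 1848.5 (0.20) and 624.3 and 716.7 (0.20). Its 3 probe sets gave nearly the same ratio, so that among fatty acid genes the shift of Scd2 was small but the most alike between probe sets of the genes with 3.

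The elongases and the other desaturases were close to equal on the 2 arrays. Elovl5, an elongase of polyunsaturated fatty acids, read 805.5 and 844.4 (0.07). Elovl6, which lengthens palmitate, read 138.6 and 140.0 (0.01). The desaturase Fads1 read 475.5 and 503.6 (0.08), and Fads2 read 263.1 and 283.5 (0.11), with 16.5 and 22.1 at a set barely above the floor (0.42). Acss2, which activates acetate to acetyl-CoA, read 43.7 and 45.2 (0.05) at one probe set, with a log2 ratio of -0.13 at another. It was the only fatty acid gene whose probe sets differed in sign, and with their median its ratio was -0.04.

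The 3 phospholipid genes did not share a direction. Pcyt1a, which encodes the rate-limiting enzyme of phosphatidylcholine synthesis, read 269.3 in the wild type and 232.7 in the TAZ-deficient pool, 1.16-fold lower (log2 ratio -0.21). Its other probe sets read 139.8 and 141.0 (0.01), 125.9 and 115.5 (-0.12) and 67.2 and 65.3 (-0.04), so that 3 of 4 were lower and 1 was near 0. Chpt1, the cholinephosphotransferase that completes the same route, read 179.9 and 169.7 (-0.08), and its 4 probe sets had log2 ratios between -0.26 and -0.08. Gpam, the mitochondrial acyltransferase that starts glycerolipid synthesis, read 423.8 and 443.5 (0.07), and its second probe set had a ratio of 0.08. Pcyt1a and Chpt1 thus read lower at the probe sets used and Gpam higher.

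Related genes outside the 36 did not follow the same division. Of 12 other sterol genes measured, 9 had a ratio above 0 and 3 below, with a median log2 ratio of 0.05. Npc2, a lysosomal sterol carrier, read 2675.9 and 2748.2, and the sterol reductase and nuclear envelope protein Lbr read 898.9 and 911.9. Erg28 read 415.7 and 433.9 (0.06), so that Lbr and Erg28 were slightly higher, unlike most sterol members. Ggps1 went the other way, reading 148.4 and 124.4 (-0.25), with its 4 probe sets between -0.28 and -0.10. The 12 genes include transport and control genes as well as enzymes. The only one at least 1.2-fold different was Abca1, the cholesterol exporter induced by the sterol receptor LXR, which read 385.3 and 490.8 (1.27-fold higher, 0.35), its 3 probe sets ranging from 0.05 to 0.35. Within this list, which holds none of the 36 members, other genes under LXR control differed less. Abcg1, a related exporter, read 73.2 and 70.4, Mylip, a ubiquitin ligase, 187.0 and 188.3, and Nr1h3, the gene of LXR alpha, 59.2 and 65.9. The SREBP proteases read 936.3 and 846.8 for Mbtps1 (-0.14) and 199.4 and 218.3 for Mbtps2 (0.13), one lower and one higher.

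Of 23 other fatty acid and phospholipid genes measured, 12 had a ratio above 0 and 11 below, with a median of 0.02. Fabp5, a fatty acid binding protein, read 1417.4 and 1695.0 (0.26), and Tecr, which completes each round of elongation, read 1239.1 and 1321.0 (0.09). At 1.2-fold 2 were higher and 2 lower, none reaching 1.5-fold. Choline kinase, Chka, was higher (91.3 and 114.2), as was Pemt, which methylates phosphatidylethanolamine (29.7 and 40.7). Malic enzyme, Me1, a source of NADPH for fatty acid synthesis, was lower (196.4 and 155.2, 1.27-fold, -0.34), with its second probe set at -0.11. Lpin1, a phosphatidate phosphatase, was lower at one probe set (35.5 and 29.1) and higher at the other (0.28). Erg28, Ggps1, Abca1, Abcg1, Mylip, Nr1h3, the proteases and the 4 genes of this 1.2-fold count are named after their values were seen. No list of pathway genes beyond the 36 thus had the single direction of the fatty acid members.

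Wwtr1 followed the labels, its 3 probe sets reading 791.2, 222.9 and 176.9 in wild type and 11.3, 6.4 and 3.9 in the TAZ-deficient pool. Markers listed for type 2 cells and distal epithelium, Epcam and Cdh1 among them, were present. Of these markers 7 of 9 had ratios above 0 (median log2 ratio 0.13, the same size as that of the fatty acid genes). Their summed signal was 10217.0 in the wild type and 10816.4 in the TAZ-deficient pool, Sftpc reading 4142.5 and 4121.5 and Etv5 1420.4 and 1620.5. Muscle and mesenchyme markers summed to 7389.6 and 7275.7 (3 of 7 ratios above 0; Acta2 2749.2 and 2701.5, Col1a2 1829.7 and 1868.5). In that list 2 smooth muscle genes were at least 1.2-fold lower, Tagln (557.0 and 434.8, -0.36) and Myh11 (80.1 and 57.0, -0.49). Both are named after their values were seen, and each rests on 1 probe set above the floor. Acta2, also a smooth muscle gene and the brightest of the list, was close to equal (-0.03). Endothelial markers summed to 1318.3 and 1297.6 (1 of 4 above 0; Pecam1 499.1 and 455.1, Cdh5 352.3 and 342.3, Tek equal at 271.0, Kdr 195.9 and 229.2). Red cell markers summed to 1722.1 and 3905.9 because of the 3 embryonic globins (Hbb-y 926.0 and 2825.8, Hba-x 113.8 and 409.2, Hbb-bh1 19.9 and 61.7). The fourth marker, the heme synthesis gene Alas2, read slightly lower (662.4 and 609.2, -0.12). What part the differences in the epithelial, Tagln, Myh11 and globin signals had in the lipid gene ratios was not tested. Markers of 2 tissues rich in lipid synthesis were at or near background. Of 7 liver markers only albumin, Alb, exceeded the floor (15.3 and 10.7), the list summing to 31.7 and 22.3, and of 7 fat cell markers only Lipe (36.4 and 31.9) and, barely, Pparg did, summing to 73.5 and 59.5, with Adipoq at 5.6 and 0.8.

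The division by role was compared under 8 other ways of processing the arrays. The fatty acid median stayed between 0.12 and 0.14 and the sterol median between -0.08 and -0.05. Of the fatty acid genes 9 of 10 kept a ratio above 0 in every way of processing that gave a value, Acss2 being the other, and of the sterol genes 13 kept one below 0, 2 (Hmgcs1 and Pmvk) one above 0 and 3 (Lss, Dhcr7 and Stard4) changed sign. Of the regulators, Srebf2 and Insig2 changed sign, Scap and Insig1 stayed below 0 and Srebf1 above it. None of these ways replaces a second pool, since all use the same 2 arrays.

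**Figure D4:**
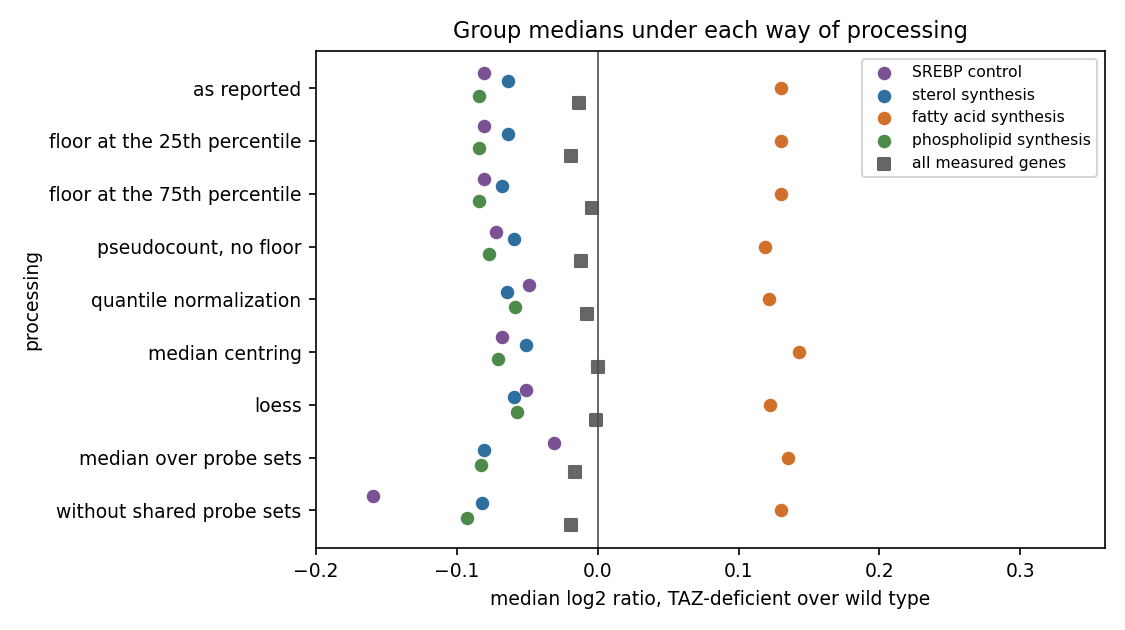
Median log2 ratio, TAZ-deficient over wild type (horizontal axis), for the 4 roles and for all measured genes, as reported and under 8 other ways of processing (rows). The fatty acid median lies at 0.12 to 0.14 in every row, and the other 3 role medians lie below 0.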

How the data were processed

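Each array gave 1 linear intensity value per probe set, made by the authors with GCOS and MAS5, per the submitters' processing notes, which give no versions. Each array's mean without its lowest and highest 2% was 100.001, so both had been scaled alike. Of 45101 probe sets, 64 were controls, 34945 named 1 gene, 932 named several genes and 9160 were not listed in the annotation; only those with 1 gene were used, with symbols updated through Entrez identifiers to RefSeq. The probe design's genome build is not given in the sources used here.

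Signals below the median of all non-control values (15.2) were set to it, log2 ratios were taken, and a gene was represented by its probe set with the highest mean log2 signal. No test was possible with 1 array per group, whose number limits the precision of every value. Differences were counted at 1.2-fold and 1.5-fold. Alternatives were floors at the 25th and 75th percentile, a pseudocount of 16 without a floor, quantile normalization, median centring, loess (span 0.3), the median over probe sets, and leaving out probe sets with the suffixes of shared sets. The steps were tested on simulated data. Every member was to be named, with all its probe sets above the floor where it was at least 1.2-fold different or they differed in sign; of each other list, genes at least 1.5-fold different or otherwise the 2 with the highest signal. Of 82 genes in the other lists 74 matched a probe set. Members and lists were chosen with earlier results of these data known. Python 3.11.15, pandas 2.3.3 and statsmodels 0.14.6 were used.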

Additional observations from a re-analysis of the deposited data

How the results depend on the processing

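Neither the median over all members nor any role median changed its sign under any of the 8 alternatives. The median over all members was, however, almost 0 under 2 of them, -0.0004 with loess and -0.0039 with quantile normalization. With loess 18 members had a ratio above 0 and 18 below. The 3 members at least 1.2-fold higher became 1 with the floor at the 75th percentile, which leaves out Scd1 and Lss as too dim, and the 1 lower became 0 without shared probe sets, which leaves out the probe set of Msmo1. The 1 member at least 1.5-fold higher, Scd1, became 0 with that higher floor, with a pseudocount in place of the floor and with the median over probe sets. Regulators of SREBP with a ratio above 0 numbered 2 under quantile normalization, loess and the median over probe sets, against 1 of 5. When shared sets were left out they numbered 0 of the 4 measured, Srebf1 having no value. Sterol genes with a ratio above 0 numbered 2 of the 16 measured without shared probe sets and 2 of the 13 measured with the higher floor, against 4 of 18. Pmvk had no value in either. Lss had none with the higher floor and was below 0 without shared probe sets. Fatty acid genes with a ratio below 0 numbered 1 with the median over probe sets, against 0. Of 278 ratios of single members, 1 of a member at least 1.2-fold different changed sign (Lss, -0.071 without shared probe sets) and 2 moved by more than 0.20 (Insig2 and Scd1, with the median over probe sets). In all 6 members changed sign under at least 1 alternative, the other 5 (Srebf2, Insig2, Dhcr7, Stard4 and Acss2) being under 1.2-fold as reported. No paired analysis was possible because each group has 1 array. Signal over background limits Scd1, Acss2, Tm7sf2 and Lss most.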

Other observations

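Some members had a further probe set whose ratio was larger than that of the set used. For Hsd17b7 it read 56.1 in the wild type and 40.5 in the TAZ-deficient pool (log2 ratio -0.47), for Stard4 319.4 and 237.7 (-0.43) and for Sc5d 56.8 and 46.2 (-0.30). On the fatty acid side the set with the larger ratio read 30.3 and 40.4 for Acaca (0.42) and 16.5 and 22.1 for Fads2 (0.42). In these 5 genes the larger ratio had the sign of the median of the gene's role, but in Acss2 the further set had a log2 ratio of -0.13 against 0.05 at the set used, opposite to the fatty acid median. The genes were picked after their values were seen, and no value here shows whether the probe sets detect different transcripts.

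The 2 stretches of the sterol pathway gave different pictures by gene and by probe set. The median log2 ratio of the member genes was -0.11 from HMG-CoA to squalene and -0.06 from squalene to cholesterol. By probe set, after squalene 14 of 15 probe sets above the floor had a ratio below 0, the exception being a shared probe set of Lss. These 15 probe sets belong to 10 genes and are not separate observations. Before it, 8 of 14 did and 6 had a ratio above 0. The difference between the stretches was not tested. This division of the pathway was drawn after the values were seen.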
